A study of Saccharomyces cerevisiae with 5 samples.

Results

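The 10 genes described here encode subunits of the yeast TRAPP complexes. The data are ratios of DNA barcode signal from their deletion strains in pools, on 5 two-colour arrays of Saccharomyces cerevisiae tags. The genes are BET3, BET5, TRS20, TRS23, TRS31, TRS33, TRS65, TRS85, TRS120 and TRS130, matched by gene symbol in the platform annotation. Each had 1 strain, so they make up 10 of the 5444 strains (sets of barcodes) on the array, and 20 of its 10888 tags. The set was chosen by a measured value: TRS31 stood far from 0 on the array that compared the pools, through 1 of its tags only. All values from that contrast are therefore given as a description, with no test.

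All strains were heterozygous knockouts, in which 1 intact copy of the gene remains beside the deleted one, and each carries an UPTAG and a DNTAG barcode, which identify the strain. Strains were grown on YPD agar, pooled and frozen, and each barcode type was amplified from genomic DNA in its own PCR of 50 cycles with a Cy3- or Cy5-labelled primer. Of the arrays, 3 were Pool A self-self (Cy3 and Cy5 both marked Pool A) and 1 was Pool B self-self. The last, called the mixed array here, had Pool A in Cy3 and Pool B in Cy5. By design 94 strains were unequal between the pools: Pool B received them at 1:1, 1:8 or 1:64, and Pool A received them after a further dilution of 0.33 to 5 log2 units or not at all. All other strains were equal. The labels do not say which strains were the 94, so whether a TRAPP strain was among them is not known here. The labels do not tie the Pool A arrays to separate cultures, so the p-values cover array-to-array spread, which may be purely technical.

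TRAPP complexes are tethering factors and nucleotide exchange factors that act on Rab GTPases, the switches that direct vesicles to their target membrane. A core of small subunits is shared by all of them and activates Ypt1 on the path from the endoplasmic reticulum to the Golgi. Added subunits make TRAPPII, which acts at the late Golgi on Ypt31 and Ypt32, and TRAPPIII, which also serves autophagy. BET3, BET5, TRS20, TRS23, TRS31, TRS120 and TRS130 are essential genes in yeast, while TRS33, TRS65 and TRS85 are not. On the array the latter 3 were measured by 6 spots per tag and the other 7 members by 1 spot per tag.

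The values below are log2 ratios of the 2 channels of an array, from which the array's median over named spots was subtracted. On a self-self array both channels hold the same pool. A value there measures neither the abundance of a strain nor a difference between pools. A positive value was read as more Cy5 than Cy3, which on the mixed array means more signal from Pool B. This direction is likely only: the files do not state it, but the design dilutes strains further in Pool A, and of the strains with both tags 2 log2 units or more from the Pool A mean, 14 lay above it and 2 below. The tags lie in 2 blocks of the array, called the first and the second, because which block holds the UPTAGs is not given. A difference on the mixed array is its value minus the Pool A mean, taken over the 3 Pool A arrays. Arrays give no count of molecules, and the number of arrays limits the precision.

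TRS31 (YDR472W, chromosome IV) encodes a core subunit with the fold of Bet3 that belongs to the part of the complex able to activate Ypt1. On the Pool A self-self arrays its second tag read 0.16, -0.07 and -0.14, and on the Pool B self-self array -0.33. On the mixed array the same tag read 5.63. Its first tag read 0.18, -0.14 and -0.14 on the Pool A arrays, 0.22 on the Pool B array and 0.40 on the mixed array. The second tag thus stood high on 1 array alone, and the first tag was above its Pool A values there by a far smaller step. The differences were 5.65 for the second tag and 0.43 for the first, which average to 3.04 for the strain. Both tags rest on 1 spot each, and there is 1 mixed array, so neither value has a repeat. With quantile normalization the second tag's difference was 3.80.

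Among all 10888 tags, 7 differed by at least 5, and the second tag of TRS31 was the fourth highest. The gap of 5.21 between its 2 differences was the largest of the 5444 strains as processed here, against a median gap of 0.41. Strains with a second tag at 3 or more and a first tag within 0.5 of 0 numbered 3, namely TRS31, HEH2 and RXT3. The reverse held for PUF6 and SRP14. All 5 lie on chromosome IV, which holds 707 of the 5444 strains.

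The self-self arrays, which the choice of members did not turn on, gave no such gap for TRS31. Its first minus second tag was 0.01, -0.07 and -0.002 on the Pool A arrays, a mean of -0.02 ± 0.04 (SD, n = 3, limma adjusted p = 0.924). Over all strains this quantity had a median of -0.44, since the blocks lay at different levels, and 64.1% of strains departed from 0. With each block centred on its own median the value for TRS31 became 0.39 (limma adjusted p = 0.0205, with adjusted p from 0.0205 to 0.985 over the alternatives). On the Pool B array the first tag of TRS31 exceeded the second by 0.55, which was 0.57 ± 0.32 (SE) above the Pool A mean (limma adjusted p = 0.181).

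**Figure D1:**
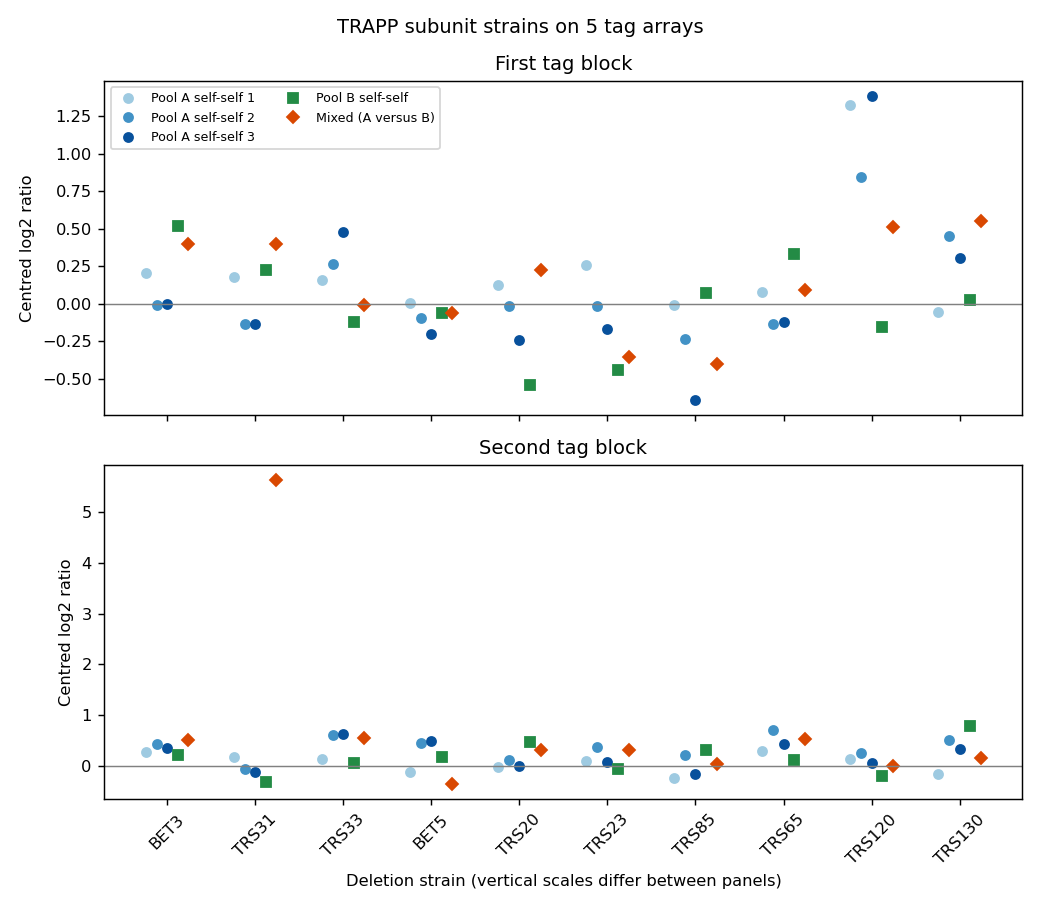
Centred log2 ratio (vertical axes, on different scales) of the first tag (top) and the second tag (bottom) of the 10 TRAPP strains, with 1 point per array. The second tag of TRS31 on the mixed array lies at 5.63, and the other 19 tags lie within 0.67 log2 units of their Pool A mean on that array. The first tag of TRS120 is highest on the 3 Pool A arrays and lies at 0.51 on the mixed array.

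The strains next to TRS31 in gene order were above 0 on the mixed array too, by less. RPL27B (YDR471W), a ribosomal protein gene directly before it, differed by -0.02 in its first tag and 2.10 in its second. PRP3 (YDR473C), a splicing factor gene directly after it, differed by 0.76 and 1.28. Of the 6 neighbours, 2 are tag sets of JIP4. On the Pool B self-self array, where both channels held the same pool, RPL27B read 0.90 and 0.64. Its Pool A means were -0.16 and -0.29. Both tags of UGO1, PRP3 and the second JIP4 set were above their Pool A means there too. SDC1 and the first JIP4 set each had a tag above and a tag below. TRS31 read 0.22 and -0.33 there, against Pool A means of -0.03 and -0.01. On the mixed array the strain means of the 6 neighbours differed from Pool A by 0.28 (UGO1) to 1.04 (RPL27B), with a median of 0.79. For comparison, the median over all strains was -0.06.

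**Figure D2:**
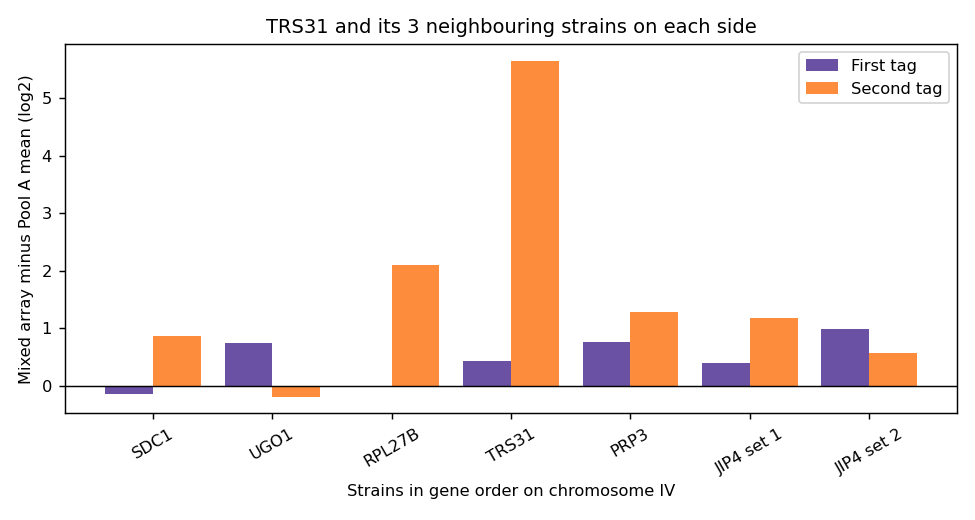
Mixed array minus Pool A mean (vertical axis, log2 units) of each tag for TRS31 and the 3 strains on each side in gene order on chromosome IV (horizontal axis). The second tag of TRS31 reaches 5.65; the highest tag of a neighbour is the second tag of RPL27B at 2.10.

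The other 3 members on chromosome IV did not share this. The 6 neighbours of TRS120 had a median difference of -0.04, those of TRS85 0.17 and those of TRS23 -0.38. Around the 6 members on other chromosomes the medians lay between -0.22 (BET5) and 0.11 (TRS65).

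The strains whose values were most like those of TRS31, by Euclidean distance over 10 values (5 arrays by 2 tags), were RPP1A, PMT5, RPS17B, HEH2 and RXT3. RPP1A, a ribosomal stalk protein gene, lay at a distance of 1.15, with differences of 0.59 and 5.50 in its first and second tag. PMT5, a protein mannosyltransferase gene, lay at 1.32, with 1.51 and 6.12. All 5 are on chromosome IV, and HEH2 and RXT3 among them were already named above for their tag split. The distance is dominated by the second tag on the mixed array, the value by which TRS31 was picked, so a high second tag there follows from how these strains were found.

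BET3 (YKR068C, chromosome XI), the central subunit of the core, had a steady second tag. It read 0.27, 0.42 and 0.35 on the Pool A arrays, 0.21 on the Pool B array and 0.50 on the mixed array. All 5 values were positive, and the Pool A mean of 0.35 ± 0.08 (SD, n = 3) passed the test against 0 (limma adjusted p = 0.0203). The first tag read 0.20, -0.01 and 0.00 on the Pool A arrays, 0.52 on the Pool B array and 0.40 on the mixed array. The differences on the mixed array were 0.33 and 0.15. The test of the second tag was lost without the second or the third Pool A array (limma adjusted p = 0.164 and 0.116, from 0.00889 to 0.352 over the alternatives). With each block centred on its own median the second tag was 0.14 (limma adjusted p = 0.309) and the first was 0.26 (limma adjusted p = 0.0554).

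TRS33 (YOR115C, chromosome XV), a core subunit that helps TRAPPII to assemble, was above 0 on every Pool A array. As the mean of both tags it read 0.14, 0.44 and 0.55 there, -0.04 on the Pool B array and 0.26 on the mixed array. The Pool A mean was 0.37 ± 0.21 (SD, n = 3, limma adjusted p = 0.00378), of which the second tag gave 0.45 ± 0.29 (SD, n = 3, limma adjusted p = 0.00584) and the first 0.30 ± 0.16 (SD, n = 3, limma adjusted p = 0.0501). The Pool B value lay below all 3 Pool A values, with a difference of -0.42 ± 0.20 from their mean (SE, limma adjusted p = 0.141). The strain's departure from 0 was lost without the third Pool A array (limma adjusted p = 0.0988, from 0.000143 to 0.298 over the alternatives). The second tag's was lost without the second (limma adjusted p = 0.0848) and without the third (limma adjusted p = 0.0938, from 0.000223 to 0.222 over the alternatives). Without the first Pool A array the strain's difference from Pool B became -0.53 (limma adjusted p = 0.0333, from 0.0161 to 0.372 over the alternatives).

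BET5, TRS20 and TRS23 encode the core subunits with a longin fold. BET5 (YML077W, chromosome XIII), which contacts Ypt1 in the core, read -0.06, 0.17 and 0.14 as a strain on the Pool A arrays, 0.05 on the Pool B array and -0.21 on the mixed array. Its second tag was the one member tag with a difference under -0.5 on the mixed array other than the first tag of TRS120. That tag read -0.13, 0.44 and 0.49 on the Pool A arrays and -0.36 on the mixed array, so the Pool A arrays were themselves split.

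TRS20 (YBR254C, chromosome II), the orthologue of human sedlin and the subunit that links the core to the added ones, had tags that parted on the Pool B array. There the first tag read -0.54 and the second 0.47. On the Pool A arrays the first read 0.12, -0.02 and -0.24 and the second -0.03, 0.10 and -0.01. On the mixed array they lay together again, at 0.23 and 0.31. The first minus second tag on the Pool B array minus that on Pool A was -0.94 ± 0.33 (SE, limma adjusted p = 0.0243), in a comparison where 30.5% of strains passed. It was lost without the second Pool A array (limma adjusted p = 0.0554) and with arrays scaled to one spread (limma adjusted p = 0.0757, from 0.0173 to 0.0757 over the alternatives).

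TRS23 (YDR246W, chromosome IV), another part of the surface that activates Ypt1, differed on the mixed array by -0.38 in its first tag and 0.14 in its second. Its strain values were 0.18, 0.17 and -0.05 on the Pool A arrays, -0.26 on the Pool B array and -0.02 on the mixed array. The Pool B value lay below the Pool A range, and the difference of -0.36 ± 0.19 (SE) missed the threshold (limma adjusted p = 0.193). Without centring it was -1.05 and passed (limma adjusted p = 0.0224, from 0.0224 to 0.396 over the alternatives).

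TRS85 (YDR108W, chromosome IV) is the subunit that defines TRAPPIII and is needed for selective autophagy. It was the one member below 0 on all 3 Pool A arrays, at -0.13, -0.02 and -0.40, and the Pool B array read 0.19. The Pool A mean of -0.18 ± 0.20 (SD, n = 3) missed the threshold (limma adjusted p = 0.141). With the first listed spot in place of the mean of 6 it was -0.30 and passed (limma adjusted p = 0.02995, from 0.02995 to 0.742 over the alternatives). The mixed array read -0.19, a difference of -0.005.

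Of the TRAPPII subunits, TRS65 (YGR166W, chromosome VII, also called KRE11) had tags at different levels on Pool A. Its second tag read 0.29, 0.70 and 0.43 and its first 0.08, -0.13 and -0.12, with no overlap. On the Pool B array the order turned, with 0.10 in the second and 0.33 in the first. The first minus second tag was -0.53 ± 0.31 (SD, n = 3) on Pool A (limma adjusted p = 0.00519), close to the median of -0.44 over all strains. With each block centred on its own median it was -0.13 (limma adjusted p = 0.433), and without the second Pool A array -0.38 (limma adjusted p = 0.12, from 0.004 to 0.433 over the alternatives). Against 0 the second tag had a mean of 0.47 ± 0.21 (SD, n = 3, limma adjusted p = 0.00315), which was lost without the second Pool A array (limma adjusted p = 0.098, from 0.000675 to 0.173 over the alternatives). On the mixed array the tags differed from Pool A by 0.15 and 0.04. Without the first Pool A array the tag difference moved up between Pool A and Pool B by 0.92 (limma adjusted p = 0.0266), against 0.76 ± 0.33 (SE) with all 3 arrays (limma adjusted p = 0.0748, from 0.0236 to 0.218 over the alternatives).

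TRS120 (YDR407C, chromosome IV), a large TRAPPII subunit, was the member furthest from 0 on the Pool A self-self arrays, though not on the Pool B array. Its first tag read 1.32, 0.84 and 1.38 on the Pool A arrays, -0.15 on the Pool B array and 0.51 on the mixed array. The Pool A and Pool B values did not overlap, and the mixed array lay between them. Its second tag stayed lower, at 0.14, 0.25 and 0.04 on Pool A, -0.20 on Pool B and -0.01 on the mixed array. The first tag's Pool A mean of 1.18 ± 0.30 (SD, n = 3) passed the test against 0 (limma adjusted p = 1.13e-07), and kept it in all 10 alternatives. The strain mean was 0.66 ± 0.10 (SD, n = 3, limma adjusted p = 4.47e-06), also called in all 10.

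As a strain TRS120 was lower on the Pool B array than on Pool A, with a difference of -0.84 ± 0.19 (SE, limma adjusted p = 0.00371), and this held in all 10 alternatives. In the first tag alone the difference was -1.33 ± 0.26 (SE, limma adjusted p = 0.00086), and in the second -0.34 ± 0.24 (SE, limma adjusted p = 0.312). Without the first Pool A array the first tag's value was -1.26 (limma adjusted p = 0.0661, from 8.53e-06 to 0.0661 over the alternatives), in a fit that called 0 of the 10888 tags, though 4977 had an unadjusted p under 0.05. The first minus second tag of TRS120 was 1.04 ± 0.39 (SD, n = 3) on Pool A (limma adjusted p = 1.38e-06, called in all 10 alternatives) and 0.04 on Pool B, a difference of -0.995 ± 0.337 (SE, limma adjusted p = 0.0221). That last result missed the threshold after scaling the arrays to a common spread (limma adjusted p = 0.0742), without the first Pool A array (limma adjusted p = 0.0588) and without the third (limma adjusted p = 0.103, from 0.019 to 0.103 over the alternatives). The Pool B array has another date in its title than the other 4 arrays, so pool and date cannot be told apart. The mixed array differed from Pool A in TRS120 by -0.67 in the first tag and -0.15 in the second.

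TRS130 (YMR218C, chromosome XIII), a TRAPPII subunit needed for its action on Ypt31 and Ypt32, showed the widest spread over the Pool A arrays. Its second tag read -0.17, 0.50 and 0.33 there (SD 0.35, n = 3), 0.77 on the Pool B array and 0.14 on the mixed array. The first tag moved alike on Pool A, at -0.06, 0.45 and 0.30, while it read 0.02 on the Pool B array and 0.55 on the mixed array. In both tags the first Pool A array was the low one. Without it the strain's Pool A mean was 0.40 in place of 0.23 and passed the test against 0 (limma adjusted p = 0.00991, from 0.00991 to 0.657 over the alternatives).

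**Figure D3:**
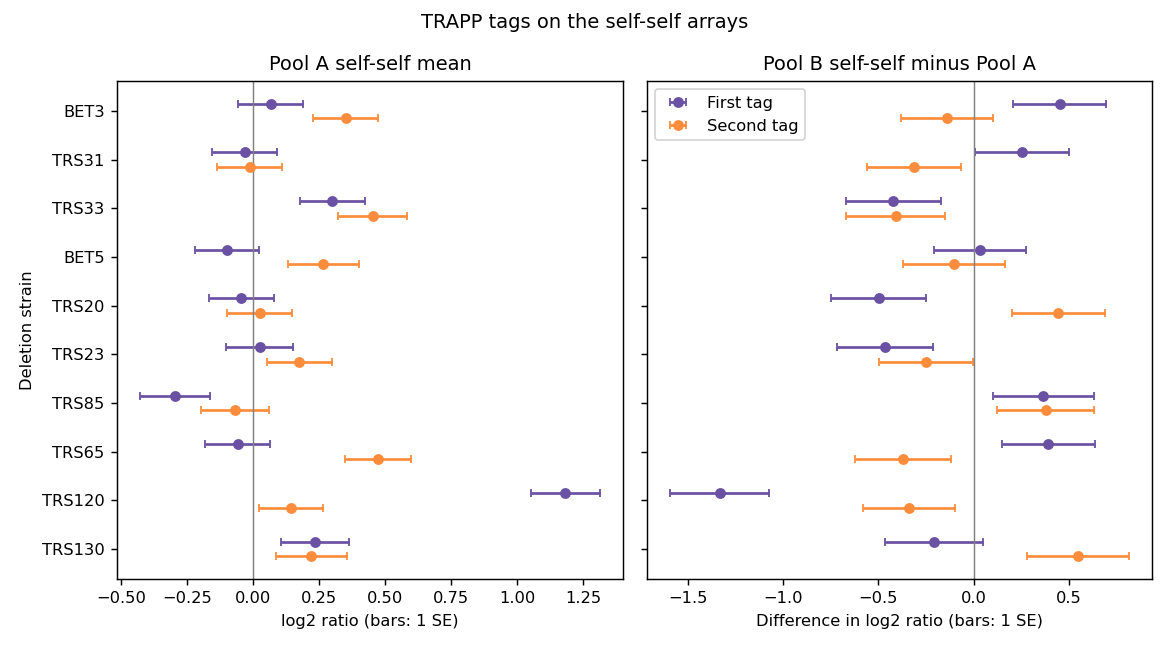
Mean log2 ratio of each TRAPP tag over the 3 Pool A self-self arrays (left) and the Pool B self-self array minus that mean (right), in log2 units, with bars of 1 standard error from the limma fit. The first tag of TRS120 stands apart on both sides, at 1.18 and -1.33.

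Over the set, few members passed on the self-self arrays. Against 0 on Pool A, 2 of 10 strains were called (TRS33 and TRS120, both positive), where 44.9% of all strains were. Of the 20 tags 4 were called, all positive (the second tags of BET3, TRS33 and TRS65 and the first tag of TRS120), where 48.3% of all tags were. The 3 second-tag calls were lost without centring and with each block centred on its own median. For Pool B minus Pool A, 1 of 10 strains (TRS120) and 1 of 20 tags (its first) were called, where 21.9% of strains and 21.2% of tags were. For the first minus second tag, 2 members were called on Pool A (TRS65 and TRS120), where 64.1% of all strains were, and 2 between Pool B and Pool A (TRS20 and TRS120), where 30.5% were. The members' shares were below these backgrounds, so no count marks the set out. The median strain value of the members was 0.15 on Pool A and -0.03 for Pool B minus Pool A, beside 0.002 and -0.03 over all strains. In 17 of 20 member tags the Pool B value lay outside the range of the Pool A arrays, as it did in 75.9% of all tags.

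On the mixed array the 19 member tags other than the second of TRS31 differed from Pool A by -0.67 (first tag of TRS120) to 0.43 (first tag of TRS31). Of these, 12 were above 0 and the median was 0.09, beside quartiles of -0.36 and 0.25 and a median of -0.04 over all tags. As strains, the 9 members other than TRS31 lay between -0.41 (TRS120) and 0.28 (TRS20). The smallest dilution step of the design, 0.33 log2 units, compares with a standard error of 0.24 to 0.27 for a member tag's difference. The comparisons of the mixed and of the Pool B array with Pool A share the same 3 Pool A arrays.

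The 3 members with repeated spots show how values of 1 tag varied from spot to spot. Each of their tags has 1 single spot and a run of 5 adjacent spots. In the first tag of TRS85 on the third Pool A array the spots of the run read -0.98 at the start and -0.23 at the end, and the single spot -0.93. The SD over these 6 spots was 0.36, larger than the 0.32 between the 3 Pool A arrays for the same tag. In the second tag of TRS33 on that array the run went from 0.05 to 0.96, and in the second tag of TRS65 from 0.09 to 0.77. On the Pool B array these 3 runs went from 0.10 to 0.27 in TRS85, from 0.04 to 0.01 in TRS33 and from 0.15 to 0.11 in TRS65. There the run of the first tag of TRS65 went from 0.13 to 0.35.

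Over all strains with such runs, TRS33, TRS65 and TRS85 included, values mostly rose along the run on the Pool A and mixed arrays. On the Pool B array the rise was smaller in the first block and absent in the second. Over 781 tags per block, the last spot exceeded the first in 99.0% of the first block and 99.4% of the second on the third Pool A array, and in 97.4% and 95.6% on the mixed array. The shares were 81.0% and 64.5% on the first Pool A array, and 68.4% and 50.4% on the Pool B array. The median range over the 6 spots was 0.71 and 0.63 on the third Pool A array, beside 0.17 and 0.12 on the Pool B array. With the single spot in place of the mean of 6, the Pool A mean of TRS85's first tag was -0.38 and was called (limma adjusted p = 0.0373, from 0.0178 to 0.692 over the alternatives). That of TRS33's first tag was 0.45 and was called (limma adjusted p = 0.00468, from 0.000329 to 0.476 over the alternatives). TRS33 as a strain was called between Pool B and Pool A, at -0.61 (limma adjusted p = 0.0431). For the 7 members with 1 spot per tag, TRS31 among them, the part of a spot's place in the result was not tested.

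**Figure D4:**
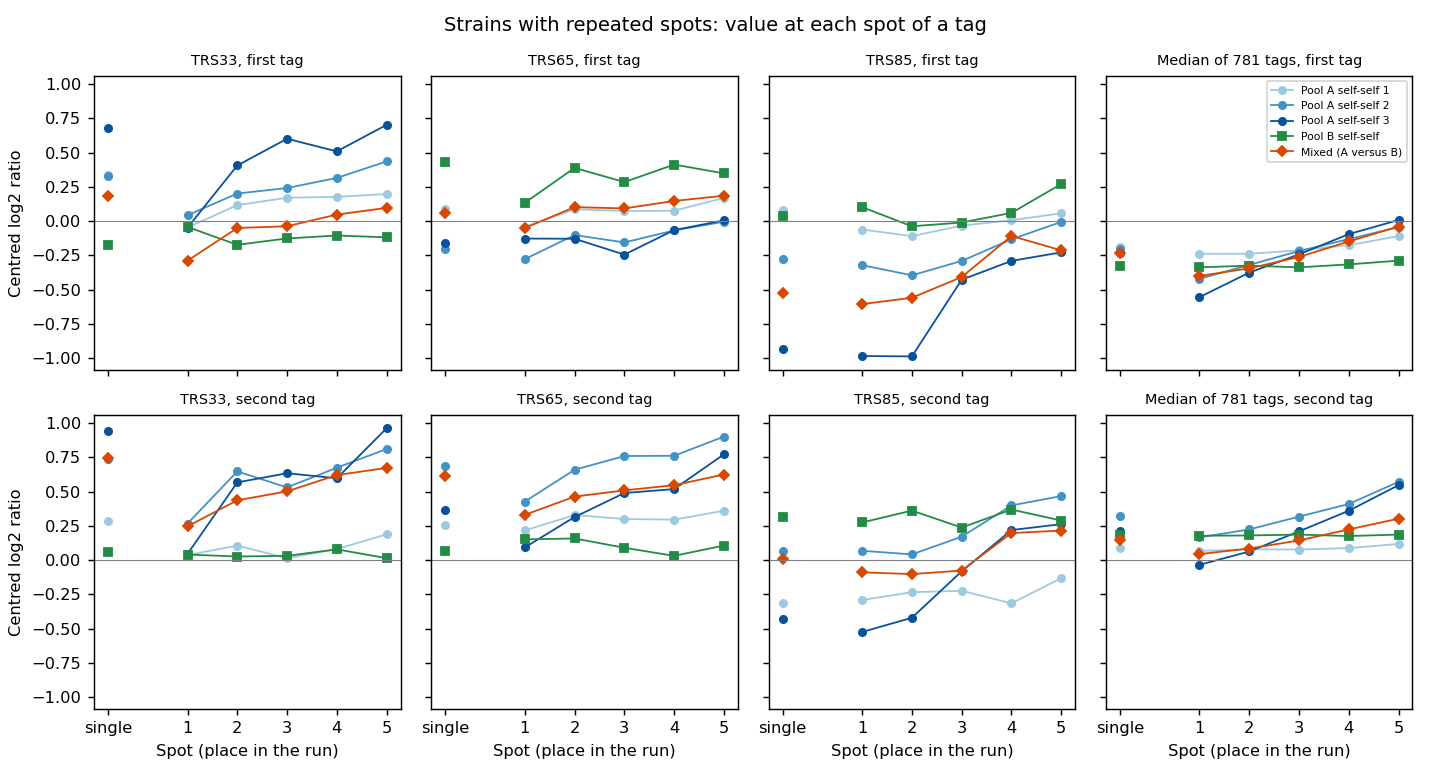
Centred log2 ratio (vertical axes) at the single spot and at places 1 to 5 of the run (horizontal axes) for the first tag (top) and second tag (bottom) of TRS33, TRS65 and TRS85, with 1 line per array, and the median over 781 tags (right). On the third Pool A array the second tag of TRS33 runs from 0.05 to 0.96, while on the Pool B array it stays between 0.01 and 0.08.

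Other genes of the same route were described from a list of 67 partners of TRAPP (Rab GTPases, coat proteins, SNAREs, tethers and cargo receptors), of which 63 had a strain on the array. Between Pool B and Pool A, 15 of 63 were called (23.8%), 8 positive and 7 negative, where 21.9% of all strains were. Against 0 on Pool A 27 were called (42.9%), 14 positive and 13 negative, beside 44.9% of all strains. SEC23, a subunit of the COPII coat that binds the Bet3 subunit, was called in both tags between Pool B and Pool A, at -0.78 and -0.84. YIF1, a gene of COPII vesicle traffic, was called in both tags in opposite directions, at -0.90 and 0.69. YPT32, a Rab on which TRAPPII acts, differed by 0.69 ± 0.19 as a strain (SE, limma adjusted p = 0.0142), and EMP24, a cargo receptor gene, by 0.59 ± 0.20 (SE, limma adjusted p = 0.0347). Both were named for high values on the mixed array minus the same Pool A mean, so these p-values are not independent of the choice. Of the partners named for their values on the mixed array, only these were called between Pool B and Pool A.

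The partners' differences on the mixed array ran from -1.38 to 0.50 with a median of -0.03. ATG1, the kinase that starts autophagy, was the lowest at -1.38, through both tags (-1.95 and -0.80). ERV14, a cargo receptor gene, followed at -0.95, through its first tag (-1.78) and little through its second (-0.11), and RET3, a coatomer gene, at -0.70. The highest were EMP24 (0.50), TIP20 (0.43), a tether gene, and YPT32 (0.40). Of these lowest and highest partners, RET3 lies on chromosome XVI and all the others on chromosome VII. The value of 3.04 for TRS31 is no fair match for these, since TRS31 was picked by its value on this array. It also averages unlike tags, at 0.43 and 5.65.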

How the data were processed

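The authors deposited 1 log2 ratio of Cy5 and Cy3 signal per spot (22575 spots, 5 arrays, 0 missing). How they scanned, background-corrected or normalized the arrays, and which dye is the numerator, is not given in the sources used here. Raised to the power of 2, 100% of values under a ratio of 1.5 were numbers with 3 decimals (25.5% for base 10), which settled the base. The platform annotation named 18794 spots, in 2 blocks offset by 10971 spot numbers, and all 10 members matched a gene table of assembly R64 used for names and gene order only. The median over named spots was subtracted from each array, spots of a tag were averaged, and the 2 tags of a strain were averaged or subtracted. Models were fitted over all strains or tags with limma 3.58.1 in R 4.3.3 with the 3 Pool A arrays, the Pool B array and the mixed array as groups. Only the first group has replicates; the spread of the other 2 groups is taken to be the same. A call is a two-sided Benjamini-Hochberg adjusted p under 0.05.

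The members, the partner list and the tests were chosen with earlier results of these data known. Named strains are the 10 members, the 3 strains on each side of TRS31, the 5 most like it, and the partners furthest from 0 on the mixed array (3 in each direction) or called in both tags between Pool B and Pool A. HEH2, RXT3, PUF6 and SRP14 were also named for a tag split after their values were seen. Alternatives changed centring, normalization, scaling, the averaging of spots, the variance model, the reference arrays and the Pool A arrays used. Tag sequences were not used here.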

Additional observations from a re-analysis of the deposited data

Results flagged for a closer look

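In TRAPP members the ratio where both channels held the same pool differed between the Pool B array and the 3 Pool A arrays by limma in 4 values. TRS120 differed by -0.84 as a strain, by -1.33 in its first tag and by -0.995 in its first minus second tag. TRS20 differed by -0.94 in its first minus second tag. Over the whole array 21.9% of strains, 21.2% of tags and 30.5% of first minus second tag values differed in these comparisons, and pool and title date cannot be told apart.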

How the results depend on the processing

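Of 80 single tests of members under 10 alternatives (800 values), 744 kept their side of the threshold, 21 lost the call and 35 gained one. Of the values called in the main fit, 0 changed sign. Some gained calls had the opposite sign to an uncalled main value. With blocks centred separately, the first minus second tag on Pool A went from -0.07 to 0.34 in TRS20 and from -0.02 to 0.39 in TRS31. The causes were not tested. Without centring, members called numbered 3 strains and 3 tags for Pool B minus Pool A (1 and 1 with centring) and 1 strain and 1 tag for Pool A against 0 (2 and 4 with centring). Over all features that setting gave 1899 strains for Pool B minus Pool A (1190 with centring), and 834 strains and 2870 tags for Pool A against 0 (2443 and 5258 with centring). The second tag of TRS31 differed by 5.22 without centring, 3.80 with quantile normalization and 5.96 with the Pool B array as reference. With blocks centred separately, 3530 tags were called for Pool B minus Pool A (2310 with whole arrays centred), and 4 members for the first minus second tag on Pool A (2 otherwise). Quantile normalization called 2 member tags and 3491 of all tags for Pool B minus Pool A. With arrays scaled to one spread, 712 strains were called for Pool B minus Pool A, and 0 members (4 at an unadjusted p under 0.05) and 1010 of all strains (1662 otherwise) for the first minus second tag by limma. The first listed spot gave 2 member strains for Pool B minus Pool A, and trend and robust settings gave 7 member tags for Pool A against 0.

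Leaving out each Pool A array in turn gave, for Pool B minus Pool A, 1 to 2 member strains, 719 to 1704 of all strains, 0 to 1 member tags and 0 to 1651 of all tags. The 0 of each came from limma without the first array, with 4 member tags and 4977 of all tags at an unadjusted p under 0.05. For Pool A against 0 the ranges were 1 to 3 member strains, 1509 to 2535 strains, 1 to 7 member tags and 3788 to 4551 tags. For the first minus second tag they were 1 to 5 members and 2671 to 3599 strains on Pool A (3488 with all 3), and 1 to 2 members and 1187 to 1973 strains between the pools. The second tag of TRS31 ran from 5.58 to 5.73. No paired analysis was possible because the lone arrays share at most 1 number with the Pool A arrays.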
